A study of Homo sapiens with 4 samples.

Results

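BMP and TGF-beta signalling was followed through 10 genes, namely the ligands BMP2, BMP4 and TGFB1, the receptor TGFBR2, the pseudo-receptor BAMBI, the inhibitory SMADs SMAD6 and SMAD7, and the target genes ID1, ID2 and ID3. They were taken from the table of gene values by symbol, and all 10 were found among the 18650 loci that had at least 1 fragment in any library. A locus is a gene, or a set of overlapping genes that the table lists with the same values, and each of the 10 genes was a locus of its own. The study treated HT-29 cells, an established line from a human colorectal cancer, and NCM460 cells, an epithelial line from human colon, with sturgeon chondroitin sulfate (SCS), a sulfated glycosaminoglycan. The 4 groups were HT-29 control cells, HT-29 cells given SCS at 100 μg/mL for 24 h, NCM460 control cells, and NCM460 cells given SCS at the same dose for the same time. The question was how the transcripts of each line differed after SCS. Total RNA of each group was sequenced as 1 library, so no difference below has a replicate check. No test within a line, or between the untreated lines, could be made. A model of SCS over both lines together was not fitted.

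As models, both lines have limits. The labels give the same serum supplement for both lines, whereas the study's methods give NCM460 cells more serum than HT-29 cells, so the line and its medium cannot be told apart in the comparison of the untreated lines. HT-29 cells are known to carry a truncating mutation of SMAD4, which was not examined here. A bulk library gives the RNA of all cells together, so fewer cells that express a gene and less RNA per cell cannot be told apart.

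BMPs and TGF-beta are secreted dimers that bring type I and type II serine/threonine kinase receptors together at the cell surface. The type I receptor phosphorylates receptor SMADs, which join SMAD4, enter the nucleus and switch genes on or off; SMAD6, SMAD7, BAMBI and the ID genes are well-known targets, and the former 3 feed back to restrain the signal. In the colon, BMP signals are strongest towards the crypt surface and go with differentiation, TGF-beta restrains epithelial growth, and both branches are often disabled in colorectal cancer.

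The libraries held 1654764 (HT-29 control), 1605372 (HT-29 SCS), 1347854 (NCM460 control) and 1156568 (NCM460 SCS) fragments. Mitochondrial transcripts made up 35.8%, 13.8%, 62.3% and 46.3% in this order, which left 1061700, 1383424, 507692 and 621582 fragments of nuclear genes. NCM460 values therefore rest on fewer fragments than HT-29 values. Levels are given as CPM, the TMM-scaled fragment count for a fixed total. On this scale 1 fragment was worth 0.489, 0.416, 1.28 and 0.925 CPM in the same order. A count of 0 was taken to allow up to 3 fragments, or 1.47, 1.25, 3.85 and 2.77 CPM. A bound set against this limit leaves out the counting error of the other library. Changes are log2 ratios of CPM with a prior count of 2, and folds are plain ratios of CPM. Each change carries an exact Clopper-Pearson 95% interval, which covers counting error only. Loci whose average over the compared pair reached 1 CPM passed the level filter, and were called higher or lower if the difference exceeded 1.5-fold with an interval on the same side of 0.

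Markers of colon epithelium were present in both lines, though not the same ones. Of 12 markers, 10 had fragments in some library, and CDX1 and GPA33 had none in any. The summed level of the 12 markers was 6526 CPM in HT-29 control, 3535 CPM in HT-29 SCS, 4346 CPM in NCM460 control and 2659 CPM in NCM460 SCS, and KRT8 was the most abundant in all but NCM460 SCS, where KRT19 was. EPCAM and CDH1 were found in all 4 libraries. KRT20, LGALS4 and VIL1 had fragments in HT-29 cells and 0 in both NCM460 libraries, whereas CDX2, a transcription factor of intestinal epithelium, had 0 fragments in both HT-29 libraries and 14 and 12 in NCM460 control and SCS. The marker list also differed with SCS, with 3 markers called higher and 4 lower of 8 that passed the level filter in HT-29 cells, and 1 higher and 3 lower of 6 in NCM460 cells. Over all loci tested, the shares called higher and lower were 16.8% and 14.8% for HT-29 cells, against 15.4% and 13.8% for NCM460 cells. The 3 lower calls in NCM460 cells were lost after removal of the GC trend described below. Between the untreated lines 6 of 9 were called higher in HT-29 control and 2 lower, where 25.3% and 23.1% of all loci were. The part of these markers in the changes below was not tested.

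Markers of other cells were low. The mesenchymal list summed to 25.4, 30.4, 56.5 and 59.2 CPM in HT-29 control, HT-29 SCS, NCM460 control and NCM460 SCS. Its most abundant entry in every library was PDGFRA, whose locus also holds FIP1L1, and COL1A2, COL3A1, LUM and DCN had 0 fragments in all 4 libraries. Between the untreated lines 5 mesenchymal markers passed the filter. In HT-29 control 3 were called lower and 0 higher, where 23.1% and 25.3% of all loci were. After the GC trend was subtracted 3, though not all the same, were called lower and 0 higher, where 20.2% and 16.8% of all loci were. Of 5 squamous or basal markers, KRT5, KRT14, TP63 and KRT6A had 0 fragments everywhere, and KRT17 had 7 and 52 fragments in HT-29 control and SCS. The endothelial list summed to 2.93, 1.66, 8.99 and 1.85 CPM. Of the blood cell markers, PTPRC, CD3E and HBB had 0 fragments in all 4 libraries, and the CD68 locus, at 318, 245, 607 and 577 CPM, is shared with EIF4A1 and other genes and does not speak for CD68.

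In HT-29 cells, BMP4 and 4 target or feedback genes, ID1, ID2, SMAD6 and SMAD7, were lower after SCS, by 1.88-fold to 3.52-fold. In NCM460 cells BMP4 did not pass the rule, TGFB1 and SMAD6 were lower and TGFBR2 was higher, and lower calls of ID1 and ID3 depended on the scaling. Between the untreated lines 9 of the 10 genes were called, where 25.3% of all loci were called higher in HT-29 control and 23.1% lower. HT-29 cells had BMP2, TGFBR2, SMAD6, SMAD7 and ID2 at higher levels. NCM460 cells had more ID1 and BMP4, and also BAMBI and ID3, which HT-29 control cells lacked at this depth. BMP2, BAMBI and ID3 passed the level filter through 1 line alone, so they had to differ. The calls of ID2 in HT-29 cells, and of ID1 and BMP4 between the lines, also depended on the scaling.

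**Figure D1:**
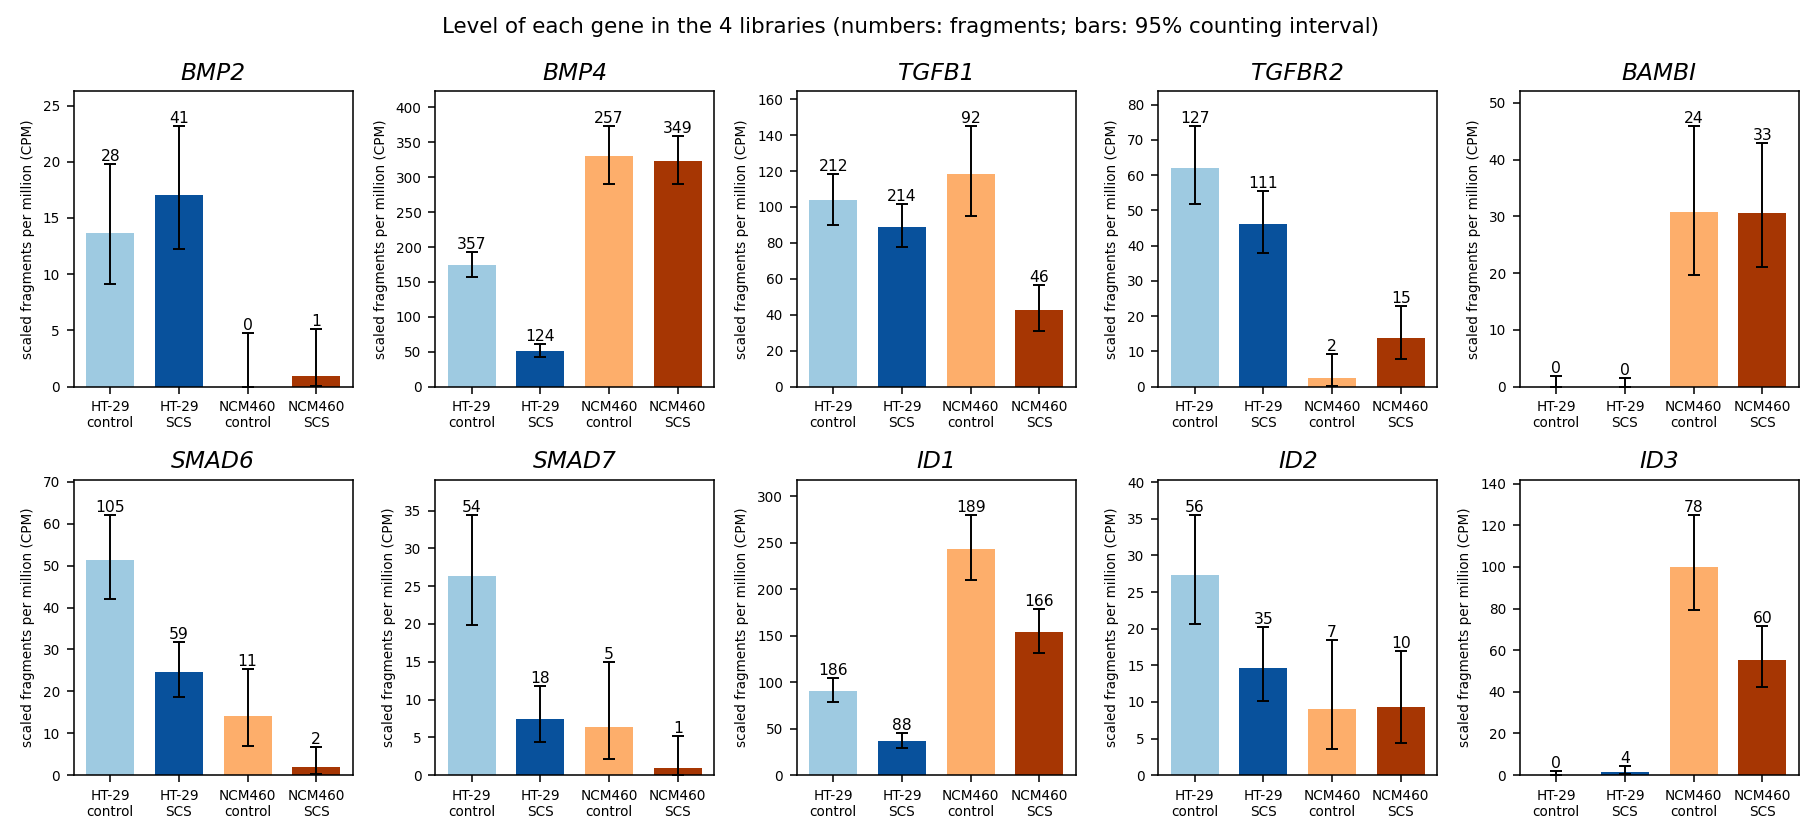
Level of each of the 10 genes in the 4 libraries, as TMM-scaled CPM, from 0 on an axis of its own for each gene. Bars are levels, whiskers are exact Poisson 95% intervals that cover counting error only, and the number over each bar is its fragments; BMP4 stands at 174 CPM in HT-29 control and 51.6 CPM in HT-29 SCS, and at 330 and 323 CPM in the NCM460 libraries.

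Compared per transcript length, as the deposited FPKM, ID1 had the highest level of the 10 genes in every library, at 119 (HT-29 control), 39.7 (HT-29 SCS), 333 (NCM460 control) and 170 FPKM (NCM460 SCS). BMP4 came next in 3 libraries, at 86.1 FPKM in HT-29 control, 173 FPKM in NCM460 control and 158 FPKM in NCM460 SCS, and in HT-29 SCS, at 20.3 FPKM, it also came after TGFB1 at 28.7 FPKM. The lowest of the detected genes was not the same in every library. BMP2 was lowest in HT-29 control, at 3.53 FPKM, and in NCM460 SCS, at 0.247 FPKM. ID3 was lowest in HT-29 SCS, at 1.41 FPKM, and TGFBR2 in NCM460 control, at 0.701 FPKM.

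BMP4, a ligand of the BMP branch (ENSG00000125378, chr14:53949736-53958761, minus strand), had 357 fragments in HT-29 control, 124 in HT-29 SCS, 257 in NCM460 control and 349 in NCM460 SCS. These are 174, 51.6, 330 and 323 CPM. Both NCM460 libraries thus stood above both HT-29 libraries, and HT-29 SCS stood lowest. In HT-29 cells BMP4 fell by 1.73 on the log2 scale with SCS (interval -2.06 to -1.46), 3.38-fold. In NCM460 cells the log2 change was -0.03 (-0.27 to 0.21), and the HT-29 change was below it by 1.70, with a counting interval of that difference from -2.11 to -1.34. With scaling by total fragments BMP4 in NCM460 cells came to 0.66 and was called higher, where the median of all loci was 0.57. The contrast of the lines was added after the data were seen. BMP4 is among genes that the study itself picked for their change in HT-29 cells, so its fall is not independent evidence.

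BMP2, another BMP ligand (ENSG00000125845, chr20:6767664-6780280, plus strand), had 28 and 41 fragments in HT-29 control and SCS, and 0 and 1 in NCM460 control and SCS. Its levels in HT-29 cells, 13.7 and 17.1 CPM, gave a log2 change of 0.29 (-0.41 to 1.07), which was not called. In NCM460 cells it lay under the level filter and its change is not given.

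TGFB1, which encodes the TGF-beta 1 ligand (ENSG00000105329, chr19:41301587-41353911, minus strand), had 212 fragments in HT-29 control, 214 in HT-29 SCS, 92 in NCM460 control and 46 in NCM460 SCS, or 104, 89.1, 118 and 42.5 CPM. The NCM460 SCS library was the lowest and the other 3 had overlapping counting intervals. With SCS the log2 change was -0.22 (-0.50 to 0.06) in HT-29 cells, which was not called. In NCM460 cells TGFB1 was called lower, with a log2 change of -1.45 (-2.02 to -0.95), or 2.78-fold. This change came to -0.76 with scaling by total fragments and to -0.70 after removal of the GC trend, and was still called.

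TGFBR2, the type II receptor that binds TGF-beta (ENSG00000163513, chr3:30606502-30694142, plus strand), had 127, 111, 2 and 15 fragments in HT-29 control, HT-29 SCS, NCM460 control and NCM460 SCS. These are 62.1, 46.2, 2.57 and 13.9 CPM, so both HT-29 libraries were above both NCM460 libraries. With SCS the log2 change in HT-29 cells was -0.42 (-0.81 to -0.05), under the 1.5-fold threshold. In NCM460 cells TGFBR2 was called higher, 5.40-fold, but from 2 fragments, so the counting interval ran from 1.26-fold to 48.7-fold.

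BAMBI, a receptor-like protein without a kinase that blocks receptor complexes (ENSG00000095739, chr10:28677342-28682939, plus strand), had 0 fragments in both HT-29 libraries and 24 and 33 in NCM460 control and SCS. No fold can be given for HT-29 cells, where 3 fragments, the limit taken for a count of 0, are 1.47 CPM in control and 1.25 CPM in SCS, and the upper ends of the Poisson 95% intervals are 1.80 and 1.54 CPM. Its NCM460 levels, 30.8 and 30.5 CPM, gave a log2 change of -0.01 (-0.82 to 0.81), which was not called. The interval is wide enough to hold a change of 1.5-fold in either direction.

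SMAD6, the inhibitory SMAD that acts mainly on BMP signals (ENSG00000137834, chr15:66702228-66782848, plus strand), had 105, 59, 11 and 2 fragments in HT-29 control, HT-29 SCS, NCM460 control and NCM460 SCS. These are 51.3, 24.6, 14.1 and 1.85 CPM, and in each line the SCS library was the lower. SMAD6 was called lower with SCS in both lines, with log2 changes of -1.03 (-1.55 to -0.59) in HT-29 cells and -2.30 (-6.15 to -0.74) in NCM460 cells. The NCM460 ratio, 7.64-fold, rests on 2 fragments and its interval ran from 1.67-fold to 70.9-fold. SMAD7, the inhibitory SMAD of both branches (ENSG00000101665, chr18:48919853-48950711, minus strand), had 54, 18, 5 and 1 fragments in the same libraries, or 26.4, 7.49, 6.42 and 0.925 CPM. It was called lower in HT-29 cells, with a log2 change of -1.66 (-2.67 to -1.02). In NCM460 cells its change was -1.81 (-8.36 to 0.36), and was not detectable at this depth.

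The ID proteins bind basic helix-loop-helix (bHLH) factors and keep them off DNA. ID1 (ENSG00000125968, chr20:31605283-31606515, plus strand) had 186 fragments in HT-29 control, 88 in HT-29 SCS, 189 in NCM460 control and 166 in NCM460 SCS, or 90.9, 36.6, 243 and 153 CPM. It was called lower with SCS in both lines, with log2 changes of -1.28 (-1.69 to -0.94) in HT-29 cells and -0.66 (-0.97 to -0.35) in NCM460 cells, and the latter call was lost under 5 of 11 alternatives. These were scaling by total fragments, which gave 0.03, scaling by nuclear totals (-0.48), libraries thinned to equal nuclear depth (-0.56), a 2-fold threshold, and removal of the GC trend. ID2 (ENSG00000115738, chr2:8678845-8684453, plus strand) had 56, 35, 7 and 10 fragments in the same libraries, or 27.4, 14.6, 8.99 and 9.25 CPM. In HT-29 cells it was called lower, with a log2 change of -0.86 (-1.56 to -0.28), a call that was lost with scaling by total fragments, with the libraries thinned to equal nuclear depth, with the deposited FPKM and at a 2-fold threshold. In NCM460 cells its ratio was 1.03 (0.354 to 3.18), an interval too wide to show a change of the size seen in HT-29 cells.

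ID3 (ENSG00000117318, chr1:23557918-23559794, minus strand) had 0 and 4 fragments in HT-29 control and SCS, and 78 and 60 in NCM460 control and SCS. The HT-29 libraries lay under the level filter, at 0 and 1.66 CPM. In NCM460 cells, at 100 and 55.5 CPM, ID3 was called lower with a log2 change of -0.84 (-1.36 to -0.35), and this call was also lost with scaling by total fragments, at a 2-fold threshold and after removal of the GC trend. ID1, ID2 and ID3 thus did not share a level pattern, since ID1 was abundant in all 4 libraries, ID2 was higher in HT-29 control than in the NCM460 libraries, and ID3 was found almost entirely in NCM460 cells.

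Of the 10 genes, 8 passed the level filter in HT-29 cells. Of these, 5 were called lower with SCS and 0 higher, and 3 were not called. Over all 12168 loci tested in HT-29 cells, 14.8% were called lower and 16.8% higher. In NCM460 cells 9 of the 10 genes passed the filter, of which 4 were called lower and 1 higher, where 13.8% of 12657 loci were called lower and 15.4% higher. The members were chosen with earlier results known, and nothing particular to them is read from these counts. The HT-29 and NCM460 changes share no library with each other, but each shares its control library with the comparison of the untreated lines.

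**Figure D2:**
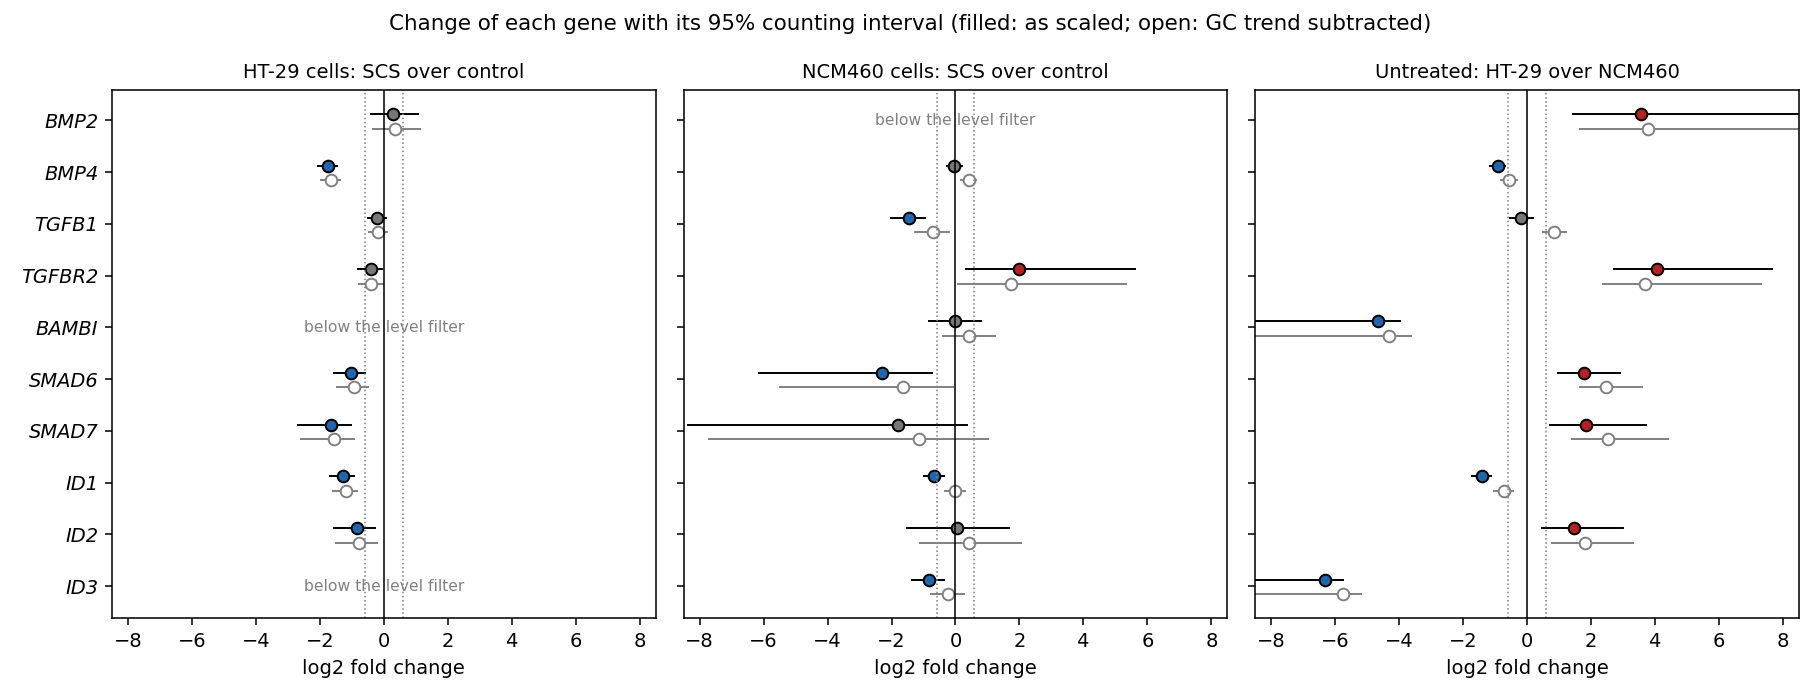
Log2 fold change of each gene with SCS in HT-29 cells, with SCS in NCM460 cells, and between the untreated lines (HT-29 over NCM460), with exact 95% counting intervals. Filled points are coloured blue (called lower), red (called higher) or grey (not called), open points have the GC trend subtracted, dotted lines mark 1.5-fold, and lines that reach the edge have no finite end; ID1 in NCM460 cells moves from -0.66 to -0.00 and BMP4 in HT-29 cells only from -1.73 to -1.65.

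The changes of NCM460 cells tracked transcript GC content. Among loci of at least 5 CPM, the median log2 change with SCS in NCM460 cells went from 1.32 at 36 to 40% GC to -0.77 at 64% GC and above, whereas in HT-29 cells it went from 0.29 to -0.01. Between the untreated lines it went from 1.63 to -1.13. The 10 genes have transcripts of 47.4% (TGFBR2) to 63.5% GC (TGFB1), and 9 of them lie above 50%. What gave rise to this trend was not tested, and a change that follows GC content cannot be told apart from a technical one.

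After a lowess trend on GC content was subtracted, the same 5 members kept their lower call in HT-29 cells, where 15.7% of 11710 loci were then called lower and 14.8% higher. In NCM460 cells 2 genes were still called lower, TGFB1 with a log2 change of -0.70 (-1.27 to -0.20) and SMAD6 with -1.64 (-5.48 to -0.07), and 1 higher, TGFBR2 with 1.72 (0.07 to 5.35), against 5.74% of 12213 loci called lower and 5.6% higher. ID1 in NCM460 cells came to -0.00 (-0.31 to 0.30) and ID3 to -0.23 (-0.76 to 0.26), and neither was called. BMP4 in NCM460 cells came to 0.41 (0.17 to 0.65), below the fold threshold.

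The difference between the lines in the change with SCS was given for the 6 genes with at least 10 fragments in each line. For ID1 the HT-29 change was below the NCM460 change by 0.63 (interval of the difference -1.15 to -0.16), and by 1.19 (-1.71 to -0.72) after the GC trend was subtracted. For BMP4 it was below it by 1.70 before and 2.06 (-2.47 to -1.69) after. For TGFBR2 the difference was -2.40 (-6.05 to -0.70) before and -2.11 (-5.77 to -0.41) after. For TGFB1 the difference was 1.23 (0.65 to 1.87) before and 0.52 (-0.06 to 1.16) after the trend was subtracted. For ID2 and SMAD6 the intervals held 0 both before and after. These intervals compare 4 libraries and not 2 treatments in replicate.

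**Figure D3:**
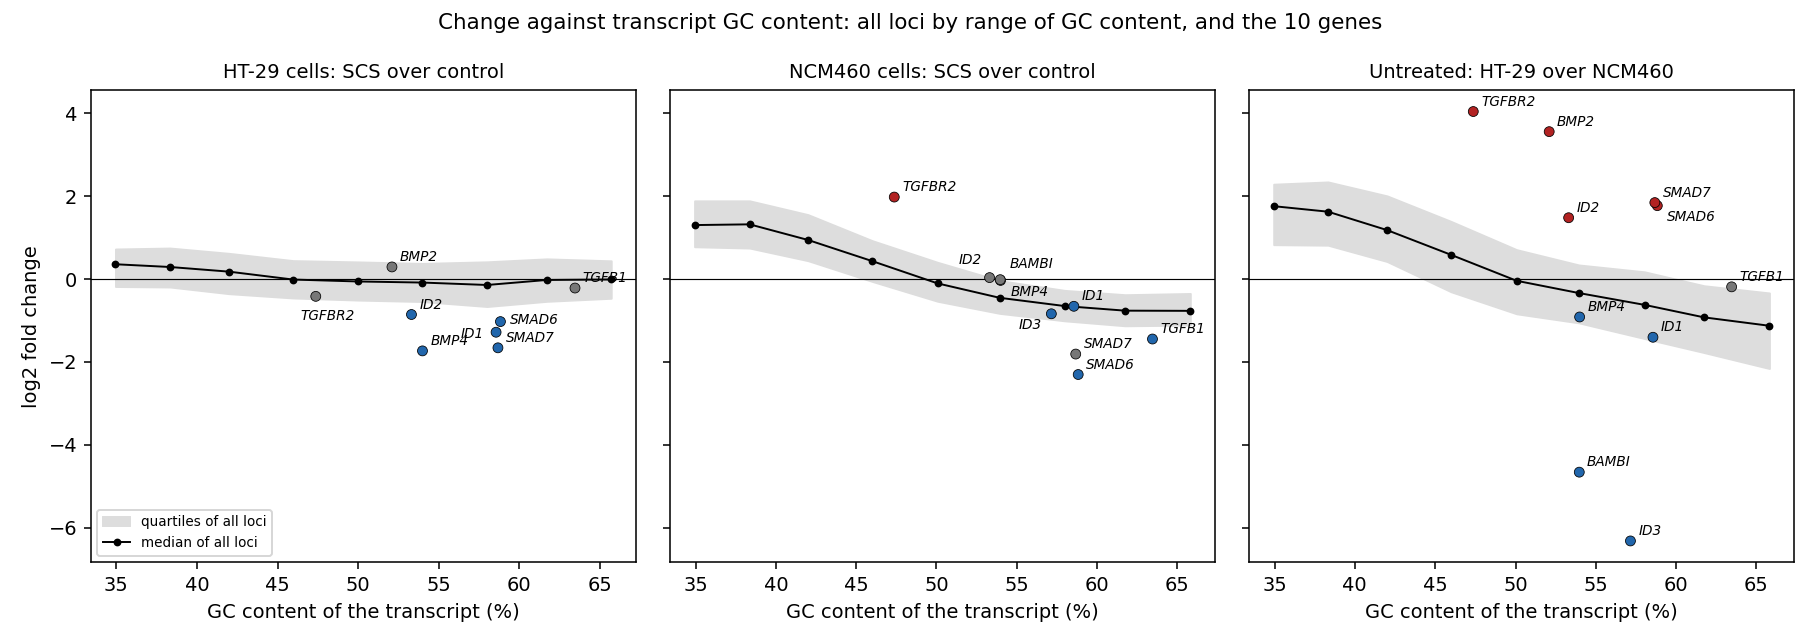
Log2 fold change against GC content of the transcript (%), for SCS in HT-29 cells, SCS in NCM460 cells, and the untreated lines (HT-29 over NCM460). The black line is the median and the grey band the quartiles of all loci of at least 5 CPM in ranges of GC content, and the named points are the genes that passed the level filter, coloured as called lower (blue), higher (red) or not called (grey); in NCM460 cells ID1 and ID3 lie on the falling line, and in HT-29 cells BMP4, ID1 and SMAD7 lie below a nearly flat one.

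HT-29 control had the higher level of 5 genes and the lower level of 4, where 25.3% of 12691 loci were called higher and 23.1% lower. BMP2, BAMBI and ID3 passed the level filter through 1 line alone, so they had to differ, and the count is a description. After the GC trend was subtracted, 6 were higher and 3 lower, against 16.8% and 20.2% of 12254 loci.

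Of the genes higher in HT-29 control, TGFBR2 stood at 62.1 against 2.57 CPM, a ratio of 24.2 that rests on 2 fragments in NCM460 control (interval 6.56 to 202). BMP2, at 28 against 0 fragments, was at least 3.55-fold higher when NCM460 control is set at 3 fragments, and the exact interval of the ratio reached down to 2.70-fold. SMAD6 was 3.63-fold higher (1.95 to 7.50), SMAD7 4.11-fold higher (1.66 to 13.2) and ID2 3.05-fold higher (1.38 to 7.92). These 5 directions held with every scaling tried.

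Of the genes lower in HT-29 control, ID3, at 0 against 78 fragments, was at least 68.3-fold lower, and BAMBI, at 0 against 24 fragments, at least 21.0-fold lower, with exact intervals that reached down to 54.2-fold and 15.8-fold. ID1 was lower by a log2 difference of -1.40 (-1.72 to -1.12), which came to -0.73 (-1.04 to -0.44) after the GC trend was subtracted and was not called with scaling by total fragments. BMP4 differed by -0.91 (-1.15 to -0.68), which was no longer called after the GC trend was subtracted, at -0.56 (-0.80 to -0.33), and turned to 0.18 with scaling by total fragments, where the median of all loci was 1.04. TGFB1 did not pass the rule, at -0.19 (-0.55 to 0.18), but came to 0.85 (0.49 to 1.21) and was called higher in HT-29 control after the GC trend was subtracted, and was also called higher, at 0.89, with scaling by total fragments.

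Scaling by total fragments, in which the mitochondrial share enters in full, shifted the median log2 change of all loci by 0.25 in HT-29 cells, 0.54 in NCM460 cells and 0.94 between the untreated lines. The part of the mitochondrial share in any change was not tested.

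Promoter sequences are shown for the 5 members that HT-29 cells showed at lower levels after SCS, and for BAMBI, which was found only in NCM460 cells. They run from 250 bases before to 50 after a start that RefSeq gives (GRCh38.p14), 5′ to 3′ on the strand of the gene. This start need not be the outer end of the gene in the deposited table, and the windows of BMP4 and ID2 lie inside the spans given above. Of the 10 genes, 9 have an entry, with 14 promoters in all, and BMP2 has none. Capitals mark 2 forms, searched on both strands. The GC-rich form bound by SMADs in BMP-responsive promoters has the letters GGCGCC, which read the same on both strands, and was found in 19.2% of 35116 promoters. The core of the SMAD-binding element has the letters CAGAC, which the other strand reads as GTCTG, and was found in 45.3%. Neither form contains the other. BMP4 and SMAD7 have 3 promoters each, of which the one farthest upstream is shown. The regions are chr14:53955001-53955300 (BMP4, minus strand), chr20:31605039-31605338 (ID1, plus strand), chr2:8681806-8682105 (ID2, plus strand), chr15:66701986-66702285 (SMAD6, plus strand), chr18:48950916-48951215 (SMAD7, minus strand) and chr10:28677271-28677570 (BAMBI, plus strand).
BMP4: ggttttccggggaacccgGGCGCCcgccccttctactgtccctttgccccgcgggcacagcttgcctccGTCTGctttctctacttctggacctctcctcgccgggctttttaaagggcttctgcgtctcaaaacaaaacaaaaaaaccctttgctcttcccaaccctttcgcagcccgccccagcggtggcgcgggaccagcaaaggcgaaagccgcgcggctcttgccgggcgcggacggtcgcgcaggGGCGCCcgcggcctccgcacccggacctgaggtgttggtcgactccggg
ID1: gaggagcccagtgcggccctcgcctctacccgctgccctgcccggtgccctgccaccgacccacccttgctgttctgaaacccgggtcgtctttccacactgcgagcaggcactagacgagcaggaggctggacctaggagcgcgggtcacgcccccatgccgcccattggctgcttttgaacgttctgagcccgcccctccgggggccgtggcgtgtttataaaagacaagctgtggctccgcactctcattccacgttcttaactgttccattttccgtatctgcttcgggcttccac
ID2: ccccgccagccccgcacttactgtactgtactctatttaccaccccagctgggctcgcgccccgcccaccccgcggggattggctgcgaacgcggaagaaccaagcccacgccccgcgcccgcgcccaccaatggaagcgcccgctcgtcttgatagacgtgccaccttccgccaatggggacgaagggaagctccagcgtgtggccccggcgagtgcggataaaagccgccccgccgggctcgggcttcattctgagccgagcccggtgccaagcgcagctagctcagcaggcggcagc
SMAD6: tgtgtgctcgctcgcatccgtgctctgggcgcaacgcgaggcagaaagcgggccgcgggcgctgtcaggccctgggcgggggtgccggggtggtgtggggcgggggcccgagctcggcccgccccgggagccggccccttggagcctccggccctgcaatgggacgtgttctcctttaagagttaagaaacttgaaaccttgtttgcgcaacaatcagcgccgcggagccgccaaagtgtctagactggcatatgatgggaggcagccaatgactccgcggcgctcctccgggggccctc
SMAD7: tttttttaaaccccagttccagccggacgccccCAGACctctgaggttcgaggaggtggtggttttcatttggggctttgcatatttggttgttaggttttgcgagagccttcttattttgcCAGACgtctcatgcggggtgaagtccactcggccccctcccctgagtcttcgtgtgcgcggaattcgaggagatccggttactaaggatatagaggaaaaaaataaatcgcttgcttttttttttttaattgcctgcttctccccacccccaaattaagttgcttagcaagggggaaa
BAMBI: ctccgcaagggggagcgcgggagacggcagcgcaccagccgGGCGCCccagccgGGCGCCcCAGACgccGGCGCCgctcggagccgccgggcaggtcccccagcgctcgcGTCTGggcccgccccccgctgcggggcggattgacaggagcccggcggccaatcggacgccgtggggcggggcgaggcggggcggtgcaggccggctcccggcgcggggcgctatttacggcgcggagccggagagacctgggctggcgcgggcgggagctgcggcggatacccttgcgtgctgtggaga

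The genes that fell together in HT-29 cells did not all hold these letters. ID1, ID2 and SMAD6 held neither form in this window, BMP4 held the GC-rich form 2 times and the core 1 time, and SMAD7 held the core 2 times. BAMBI held the GC-rich form 3 times and the core 2 times. Among all 14 promoters of the 9 genes, the GC-rich form was found in 2 and the core in 7. Shorter or other forms of the SMAD-binding element were not searched, so the run gtctagac in the SMAD6 window is left unmarked. A match is a description of the letters and not a binding site, and a window without a match says nothing of the factor.

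The other genes of the pathway were followed in 10 lists with 103 genes, of which 82 had fragments in some library and 21 had 0 in all 4. In HT-29 cells 63 passed the level filter, and with SCS 10 were called higher and 11 lower, or 15.9% and 17.5%, beside 16.8% and 14.8% over all loci, which came to 6 and 13, or 9.52% and 20.6% beside 14.8% and 15.7%, after the GC trend was subtracted. In NCM460 cells 13 of 67 were called higher and 8 lower, or 19.4% and 11.9% beside 15.4% and 13.8% over all loci, which came to 7 and 2, or 10.4% and 2.99% beside 5.6% and 5.74%, after the GC trend was subtracted. Between the untreated lines 26 of 70 were called higher in HT-29 control and 22 lower, or 37.1% and 31.4% beside 25.3% and 23.1%, and to 13 and 19, or 18.6% and 27.1% beside 16.8% and 20.2%, after the GC trend was subtracted. The median log2 change over the genes that passed was -0.01, 0.22 and 0.09 in the 3 comparisons, beside 0.07, 0.03 and 0.10 over all loci. After the GC trend was subtracted it was -0.06, -0.14 and -0.15, so the sign of the NCM460 and untreated medians depended on that step.

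**Figure D4:**
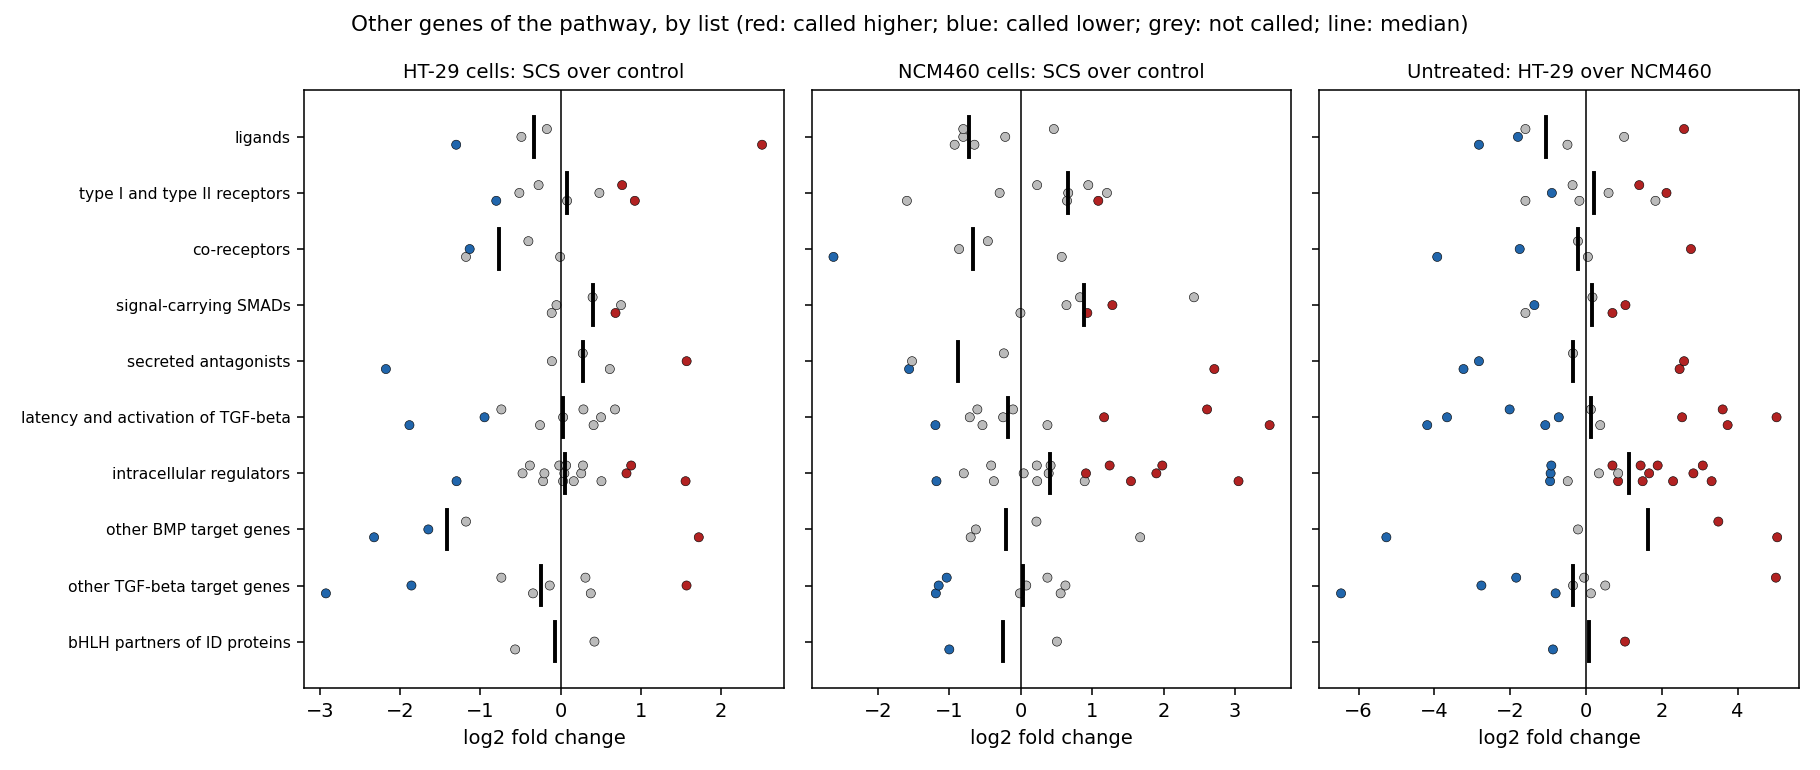
Log2 fold change of the other pathway genes that passed the level filter, list by list, for SCS in HT-29 cells, SCS in NCM460 cells, and the untreated lines (HT-29 over NCM460); each panel has its own scale. Each point is a locus, coloured as called higher (red), lower (blue) or not called (grey), and the black line is the median of the list. Other BMP target genes have a median of -1.41 in HT-29 cells, from 4 loci, beside 0.07 over all loci.

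Among other BMP target genes in HT-29 cells, GATA2, a transcription factor, went from 322 fragments in control to 73 with SCS, or 157 to 30.4 CPM, and was 5.18-fold lower (4.01 to 6.77). RUNX2, best known as a regulator of bone formation, went from 83 to 29 fragments and was 3.36-fold lower (2.18 to 5.32). The list had 4 loci that passed the filter, of which HEY1, at 0 and 7 fragments, was called higher. HEY1 passed through the SCS library alone, and MSX2, at a log2 change of -1.18, was not called. With 1 higher and 2 lower, where 16.8% and 14.8% of all loci were, nothing is read from the count. In NCM460 cells, where 4 passed, 0 were called in either direction, too few to read beside the 15.4% and 13.8% of all loci, with GATA2 at a log2 change of -0.70 and MSX1 at 0.22. After the GC trend was subtracted MSX1 came to 0.91 (0.30 to 1.55) and was called higher.

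Among other TGF-beta target genes in HT-29 cells, CCN2, a matricellular protein, went from 43 to 4 fragments and was 12.6-fold lower (4.59 to 48.4). TGFBI, an extracellular matrix protein, went from 81 to 24 fragments and was 3.96-fold lower (2.49 to 6.54). CDKN2B, a cell cycle inhibitor that TGF-beta induces, moved the other way, from 31 to 114 fragments, and was 3.13-fold higher (2.09 to 4.82). The list thus held called genes in both directions, 1 higher and 2 lower of 8, where 16.8% and 14.8% of all loci were, and nothing is read from the count. In NCM460 cells CCN2, ANGPTL4 and JUNB were called lower, with log2 changes of -1.19, -1.15 and -1.04, and after the GC trend was subtracted none of these 3 was called, while COL1A1 came to 1.28 (0.04 to 2.75) and was called higher.

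The ligands other than the 3 members were scarce. Of 17 listed, BMP3, BMP6, GDF6, INHBA, INHBB and NODAL had 0 fragments in all 4 libraries. In HT-29 cells GDF11 was called lower, with a log2 change of -1.30 (-2.61 to -0.49), and INHBE, at 1 and 21 fragments, higher. TGFB2, whose locus also holds TGFB2-OT1, stood at -0.49 and was not called. In NCM460 cells 0 of 6 ligands were called, where 15.4% of all loci were called higher and 13.8% lower, so 0 is no result, and the 2 that averaged 5 CPM or more, BMP7 and BMP8B, stood at 0.46 and -0.65.

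Of 7 receptors in HT-29 cells 2 were called higher and 1 lower, where 16.8% and 14.8% of all loci were, and nothing is read from this count. With SCS ACVR1 and TGFBR1 were called higher, with log2 changes of 0.77 and 0.92, and BMPR1A, a type I receptor for BMPs, lower at -0.80. After the GC trend was subtracted the call of TGFBR1 was lost, and BMPR2, at -0.81, was called lower. In NCM460 cells ACVR2B was called higher at 1.09, also lost after the GC trend was subtracted, and ACVR1B stood at -0.30 and was not called. As a log2 ratio of the deposited FPKM, ACVR2B went the other way there, at -0.99. Of the co-receptors, ENG was called lower in HT-29 cells at -1.13, with NEO1 at -0.40 and not called. TGFBR3 was called lower there only after the GC trend was subtracted, at -1.26 (-3.88 to -0.02). In NCM460 cells the RGMA locus, shared with a gene without a common name, was called lower, from 14 fragments to 2, a ratio of 9.72 with an interval of 2.23 to 88.1, and TGFBR3 stood at 0.57 and was not called.

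The signal-carrying SMADs were found in both lines. SMAD3, a SMAD of the TGF-beta branch, was the most abundant of them by CPM, a scale that does not correct for length, at 170, 157, 104 and 104 CPM in HT-29 control, HT-29 SCS, NCM460 control and NCM460 SCS. Its log2 change with SCS was -0.11 in HT-29 cells and -0.01 in NCM460 cells, and neither was called. The SMAD4 locus, shared with ELAC1, was called higher with SCS in HT-29 cells at 0.68, and SMAD2 and the SMAD5 locus were called higher in NCM460 cells at 0.93 and 1.28. All 3 of these calls were lost after the GC trend was subtracted. As log2 ratios of the deposited FPKM, the SMAD4 locus went the other way, at -0.42, while SMAD2 and the SMAD5 locus stood at 0.60 and 0.69. Between the untreated lines the SMAD4 locus was lower in HT-29 control, at 12.2 against 33.4 CPM. Its log2 difference of -1.36 came to -2.68 after the GC trend was subtracted. SMAD2 went from 0.17, which was not called, to -1.25 and was called lower. Of 5 tested, 2 were called higher and 1 lower, where 25.3% and 23.1% of all loci were. After that step 1 was higher and 3 lower, where 16.8% and 20.2% were.

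Of the secreted antagonists, SOSTDC1 went from 13 fragments to 1 in HT-29 cells and was called lower, and CHRD, at 0 and 6 fragments, was called higher. CHRD passed the level filter through the SCS library alone, and its interval reached down to 1.003-fold. TWSG1 stood at -0.11 and was not called. In NCM460 cells TWSG1, which binds BMPs, was called higher, from 4 fragments to 44 (7.92-fold, 2.88 to 30.4). Its log2 change of 2.71 came to 1.31 (0.13 to 3.52) after the GC trend was subtracted, and was still called. FSTL3 was called lower at -1.57 and lost the call then.

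Of the genes for latency and activation of TGF-beta, ITGB8, an integrin chain that activates latent TGF-beta, was called lower in HT-29 cells, from 29 fragments to 7, or 4.87-fold (2.09 to 13.2). The NRROS locus, shared with PIGX, was called lower at -0.95, and LTBP4 stood at 0.68 and was not called. In NCM460 cells the NRROS locus and ITGB8 passed the level filter through the SCS library alone. The NRROS locus, at 0 fragments in control and 14 with SCS, was at least 3.36-fold higher, or 1.77-fold after the GC trend was subtracted. Its exact interval reached down to 2.39-fold before that step and to a log2 change of 0.33 after it. ITGB8, at 0 and 7 fragments, and ITGAV, at a log2 change of 1.17, were called higher there, and both calls were lost after that step. As a log2 ratio of the deposited FPKM, ITGAV went the other way, at -0.38. LTBP3 was called lower at -1.20, a call also lost after the GC trend was subtracted, while LTBP4 was called higher at 0.66 after that step.

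Of the 16 intracellular regulators, TGIF1, a co-repressor of SMADs, was called higher in HT-29 cells, from 88 to 310 fragments, with a log2 change of 1.56 (1.24 to 1.94). NEDD4L, a ubiquitin ligase that acts on SMADs, was called lower, from 121 to 56 fragments, or 2.54-fold (1.83 to 3.55). USP15 and PPM1A were also called higher, at 0.82 and 0.88, and lost the call after the GC trend was subtracted. In NCM460 cells 6 of the 16 regulators were called higher and 1 lower, where 15.4% and 13.8% of all loci were, with USP15 at 3.05 (from 2 fragments) and SKI, a co-repressor, at -1.18. After the GC trend was subtracted, USP15 at 1.69 (0.24 to 5.31) and ZFYVE9 at 1.49 were still called higher, and TGIF1, which had risen in HT-29 cells, was called lower at -0.81 (-1.27 to -0.33). Of the bHLH partners of the ID proteins, TCF12 stood at 0.42 and TCF3 at -0.57 in HT-29 cells, and neither was called. In NCM460 cells TCF3 was called lower, 2.02-fold (1.51 to 2.73), a call that was lost after the GC trend was subtracted, and TCF12 stood at 0.51.

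Between the untreated lines, some pathway genes were found in 1 line alone. GATA2, found in both with 322 and 10 fragments, was 12.3-fold higher in HT-29 control (6.58 to 25.8). RUNX2, TGFBI and ITGB6 had 83, 81 and 82 fragments in HT-29 control and 0 in NCM460 control, and were at least 10.5-fold, 10.3-fold and 10.4-fold higher, or 5.14-fold, 13.04-fold and 3.87-fold after the GC trend was subtracted. ANGPTL4, MSX1, LTBP1 and RGMA had 0 fragments in HT-29 control and 86, 37, 17 and 14 in NCM460 control, and were at least 75.3-fold, 32.4-fold, 14.9-fold and 12.3-fold lower, or 37.0-fold, 18.8-fold, 12.98-fold and 8.36-fold after the GC trend was subtracted. For RGMA the exact interval reached down to 8.71-fold before that step. Genes with 0 fragments in 1 line passed the level filter through the other line alone, so they had to differ. PMEPA1 and SKIL, both feedback targets of TGF-beta, were 9.52-fold (4.52 to 24.0) and 11.4-fold (5.15 to 31.5) higher in HT-29 control. Feedback and target genes did not share a direction, since BAMBI was lower in HT-29 control and the list of other TGF-beta target genes had 1 called higher and 4 lower of 9, where 25.3% and 23.1% of all loci were, with JUNB, COL1A1 and ANGPTL4 among the lower. After the GC trend was subtracted PMEPA1 and SKIL were still called higher, with log2 differences of 3.42 and 1.49 beside 3.08 and 3.31 before, and the other TGF-beta target genes had 1 higher and 2 lower, where 16.8% and 20.2% of all loci were, with COL1A1 and JUNB no longer called.

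Taken list by list among loci that averaged 5 CPM or more, the highest values between the untreated lines in other lists, as log2 differences, were ENG at 2.77 (from 1 fragment in NCM460 control), BMPR2 at 2.12, TWSG1 at 2.47, SMAD5 at 1.04 and TCF12 at 1.03 for HT-29 over NCM460. The lowest of a list were FSTL3 at -3.23, BMP8B at -1.79, SMURF2 at -0.95, ACVR1B at -0.90 and TCF3 at -0.87. GDF11, the highest ligand at that level, stood at 1.01 and was not called. Larger differences within lists already named were those of LTBP4, which was 14.7-fold lower in HT-29 control (8.43 to 27.4), and TRIM33, 7.99-fold higher (3.78 to 20.2), and both kept their call after the GC trend was subtracted, with log2 differences of -2.44 and 1.31. BMPR2, TWSG1, SMAD5, TCF12, ACVR1B and TCF3 lost the call after the GC trend was subtracted. TGFBR1, at -0.17 and not called before, came to -1.70 (-2.85 to -0.48) and was called lower in HT-29 control after that step. As a log2 ratio of the deposited FPKM, the SMAD5 locus went the other way, at -0.76.

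Genes with a level pattern like that of a member were sought among 4348 protein-coding loci averaging 20 CPM or more, by the root mean square difference of centred log2 CPM over the 4 libraries. This was done for BMP4, ID1 and TGFB1, the members with at least 10 fragments in every library. Nearest to BMP4 were RNASEH2A, HIST1H2BO and CCND1, with differences of 0.07, 0.07 and 0.08. CCND1, which encodes cyclin D1, had 178, 65, 135 and 203 fragments in HT-29 control, HT-29 SCS, NCM460 control and NCM460 SCS. RNASEH2A had 33, 11, 25 and 37 fragments in the same libraries, and HIST1H2BO 52, 18, 44 and 56. The ranking leaves out counting error, so the order of the nearest loci is not settled. Nearest to ID1 were KIF22, NCAPD2 and EHMT2, with differences of 0.03, 0.06 and 0.08, and nearest to TGFB1 were ZC3H4, PRPF6 and SH3BGRL3, with 0.07, 0.07 and 0.08. Nothing is drawn from this on shared control.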

How the data were processed

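RNA of HT-29 and NCM460 cells, control or given SCS, was sequenced as 1 library per condition. The submitters' processing notes name bcl2fastq 2.17.1.14, cutadapt 1.9.1, Bowtie2, HTSeq 0.6.1 and hg19, and the study's methods name Cuffdiff. The gene coordinates, however, match GRCh38, since 94.4% of the rows found by ID have the start and end of GENCODE release 29.

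The count columns deposited by the authors are a signal, since fragment counts had been scaled by a factor for each library. The authors also deposited FPKM, which is per transcript length. Dividing by the worth of 1 fragment (0.686, 0.577, 2.04 and 1.33 in HT-29 control, HT-29 SCS, NCM460 control and NCM460 SCS) gave whole fragments, within 0.1, for at least 99.9% of the values above 0. The design had assumed whole counts, and was applied to these fragments. Rows with no gene name (26) held at most 0.094% of the fragments of a library and were left out.

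Libraries were scaled with TMM factors (edgeR 4.0.16), and intervals were computed in scipy 1.17.1. With 1 library per condition there are no replicates within a group. Count tests with edgeR and DESeq2 within a line, or between the untreated lines, could therefore not be fitted. A model of SCS over both lines together was not fitted either, and no gene is called by these tools. The functions were tested on simulated data. The members and lists were chosen with earlier results of these data known. Of each pathway list, the highest and lowest change among loci averaging 5 CPM or more are named, with a few left out, and with other called genes. The 3 loci nearest in pattern to a member are also named. Alternatives were DESeq2 1.42.0 size factors, totals, nuclear totals, the authors' scaling, a prior count of 0.5, filters of 5 CPM and of 1 fragment, a lowess trend on GC content (span 0.3), equal nuclear depth, a 2-fold threshold and FPKM ratios with 0.1 added. GC content came from the longest protein-coding transcript in GENCODE.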

Additional observations from a re-analysis of the deposited data

How the results depend on the processing

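No paired analysis was made. Each condition has 1 library, so neither line has replicate pairs, and SCS over both lines together was not tested. The called changes of BMP4, ID1, SMAD6 and SMAD7 in HT-29 cells, and of TGFB1, SMAD6 and TGFBR2 in NCM460 cells, were called in the same direction under all 11 alternatives. In NCM460 cells the count of called members went from 5 to 3 after the GC trend was subtracted and to 3 at a 2-fold threshold. With scaling by total fragments, ID1 in NCM460 cells went from -0.66 to 0.0333 and BMP4 between the untreated lines from -0.91 to 0.18. Over all loci, 3839 were called in HT-29 cells, 3690 in NCM460 cells and 6144 between the untreated lines. A 2-fold threshold gave 2277 in HT-29 cells, the GC trend 1385 in NCM460 cells, and FPKM ratios, which use the fold alone, 6425, 8430 and 9352. The split of higher to lower calls was 2040 to 1799, 1943 to 1747 and 3212 to 2932 in the 3 comparisons. It was 3148 to 1115, 3945 to 248 and 6326 to 1106 with total fragments, 1500 to 2293, 2385 to 1242 and 4094 to 2196 with nuclear totals, and 2696 to 3729, 3192 to 5238 and 3493 to 5859 with FPKM. With the authors' scaling it was 1577 to 2182 in NCM460 cells and 2779 to 3276 between the untreated lines. With DESeq2 size factors it was 1669 to 2047 in NCM460 cells and 2889 to 3172 between the untreated lines. Nuclear totals shifted the median of all loci by -0.14, 0.16 and 0.28, FPKM by -0.19, -0.37 and -0.52, and the authors' scaling by -0.14 in NCM460 cells and -0.12 between the lines. The causes of these shifts were not tested. Depth limits NCM460 cells most, where TGFBR2, SMAD6 and SMAD7 rest on 1 to 15 fragments a library.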
